A study of Mus musculus with 20 samples.

Results

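The 10 genes described here encode proteins that act on mitochondrial RNA after it has been transcribed. They were chosen by name from among 28632 genes in a table of raw counts, and 10 of 10 were found there. They comprise the FASTK family (*Fastk*, *Fastkd1*, *Fastkd2*, *Fastkd3*, *Fastkd5* and *Tbrg4*), the *Lrpprc*-*Slirp* pair, and the RNA-degrading pair *Pnpt1* and *Supv3l1*. Each was read in all 20 libraries and set against the 13 mRNAs encoded by mitochondrial DNA (mtDNA). The libraries came from total RNA of pancreatic islets of 12-week-old mice, cultured after isolation. There were 6 Ctrl, 4 β-Mfn1KO, 5 β-Mfn2KO and 5 β-Mfn1/2DKO libraries. Each group held both sexes, in unlike proportions, and replicate 4 was the only male library of β-Mfn1KO. In the knockouts, *Ins1*-Cre deleted floxed *Mfn1* (β-Mfn1KO), floxed *Mfn2* (β-Mfn2KO) or both (β-Mfn1/2DKO) in β-cells, so other islet cells kept intact alleles. Mfn1 and Mfn2 are GTPases that fuse the outer membranes of mitochondria. The labels call the Ctrl mice wild type, whereas the study describes controls with Cre alone or floxed alleles alone, and which of these each library came from was not known here.

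The mammalian mtDNA is transcribed into long precursors that are cut into rRNAs, tRNAs and mRNAs. The level of each mRNA then depends in part on how it is processed, protected and degraded. FASTK-family proteins, all made from nuclear genes, each act on a few mitochondrial transcripts. Lrpprc and Slirp form a complex that binds mitochondrial mRNAs, shields them from decay and promotes their polyadenylation. Pnpt1 (polynucleotide phosphorylase) and Supv3l1 (an RNA helicase) together degrade mitochondrial RNA. β-Cells rely on mitochondrial ATP production to couple glucose to insulin release, so mtDNA-encoded subunits of the respiratory chain are central to their function.

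*Mfn1* stood lower in β-Mfn1KO (log2 fold change −1.31) and β-Mfn1/2DKO (−1.07) than in Ctrl, and *Mfn2* stood lower in β-Mfn2KO (−1.15) and β-Mfn1/2DKO (−0.75). Ctrl libraries held 12400687 to 20329064 counts, β-Mfn1KO 15745680 to 16685381, β-Mfn2KO 15110046 to 59533407 and β-Mfn1/2DKO 65533388 to 122947313, so that depth and genotype cannot be told apart in full. The islet label was checked against 10 β-cell markers, of which 0 were at 0 in any group. Their summed level ran from 140867 to 219236 CPM (counts scaled to a fixed library total) in Ctrl and from 65670 to 96248 in β-Mfn1/2DKO. The summed level of 18 acinar markers reached 52972 CPM in 1 β-Mfn1/2DKO library, against 356.4 to 2139 in Ctrl. Endothelial markers (230.1 to 367.2 CPM against 145.4 to 219.1 in Ctrl) and ductal markers (855.9 to 1089 against 594.4 to 831.3) were higher in each β-Mfn1/2DKO library than in each Ctrl library. Alpha-cell markers had a median of 40542 against 27747, with overlap. Delta-cell markers (median 2348 against 2757) and the PP-cell marker (2974 against 2794) overlapped as well. For the acinar shift, alternatives below used an acinar score (the mean log2 level of the 18 markers) as a covariate, or left out β-Mfn1/2DKO replicates 4 and 5. The part of the other shifts in the results was not tested. In whole islets, fewer β-cells and less of an RNA per β-cell cannot be told apart from these counts. The study found no significant difference in β-cell mass between the genotypes, measured in younger mice. It also reports lower *Slc2a2* and *Mafa*, which are among the β-cell markers, in β-Mfn1/2DKO islets.

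The promoters of the 10 genes were compared in RefSeq sequences of the GRCm38.p6 build, from 250 bases before to 50 bases after the transcription start. The motif CCGGAAG, the core bound by ETS-family factors such as GABP, was present on either strand in 4 of 10 (*Fastk*, *Fastkd5*, *Tbrg4* and *Slirp*), and in 8.86% of 32851 promoters. AAGATGGC, a YY1-type motif, was present in 2 of 10 (*Tbrg4* and *Slirp*) and in 2.75% of promoters. CGCATGCG, the inner part of the site of NRF1, was present in 0 of 10 and in 1.87% of promoters. A match describes these letters alone. The stretches from 150 to 11 bases before the start are shown for 1 member of each functional class. No annotated exon overlaps these stretches. Of the FASTK genes, only *Tbrg4* held both an ETS and a YY1-type match. On GRCm38 the stretches lie at chr11:6626078-6626217 (minus strand) for *Tbrg4*, chr17:84790797-84790936 (minus strand) for *Lrpprc* and chr11:29130594-29130733 (plus strand) for *Pnpt1*. Capitals mark the motif matches.
Tbrg4: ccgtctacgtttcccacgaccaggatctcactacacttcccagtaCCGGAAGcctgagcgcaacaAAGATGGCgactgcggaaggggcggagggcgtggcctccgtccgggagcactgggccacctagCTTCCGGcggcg
Lrpprc: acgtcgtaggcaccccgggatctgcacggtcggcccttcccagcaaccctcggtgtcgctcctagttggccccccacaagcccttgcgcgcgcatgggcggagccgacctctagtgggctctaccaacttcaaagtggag
Pnpt1: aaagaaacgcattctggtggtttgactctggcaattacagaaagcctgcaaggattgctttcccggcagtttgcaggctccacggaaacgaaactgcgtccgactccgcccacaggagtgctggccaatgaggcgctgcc
*Tbrg4* held 2 ETS matches, starting 105 and 22 bases before the start (the latter on the reverse strand), and a YY1-type match at 85 bases. The *Lrpprc* and *Pnpt1* stretches held none of these motifs. Among the factors themselves, *Nrf1* rose in β-Mfn1/2DKO over Ctrl (log2 fold change 0.93, SE 0.10, adjusted p = 1.8e-06). *Gabpa* (−0.06, adjusted p = 0.55) and *Yy1* (0.10, adjusted p = 0.14) did not pass the test.

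The first question was whether the regulators fell together with the mRNAs that they act on. The 13 mtDNA-encoded mRNAs took up 1.72 to 2.01% of counts in Ctrl (median 1.84%), 1.53 to 1.95% in β-Mfn1KO, 1.101 to 1.204% in β-Mfn2KO and 0.53 to 0.72% in β-Mfn1/2DKO. The ranges of Ctrl, β-Mfn2KO and β-Mfn1/2DKO did not overlap. Relative to the Ctrl mean, β-Mfn1/2DKO was at −1.23 percentage points and β-Mfn2KO at −0.709 (exact two-sided permutation test, p = 0.0043 each). β-Mfn1KO was at −0.0830 (exact permutation p = 0.42). The 10 regulators together took up 0.0266 to 0.0310% of counts in Ctrl, 0.0286 to 0.0308% in β-Mfn1KO, 0.0280 to 0.0325% in β-Mfn2KO and 0.0290 to 0.0334% in β-Mfn1/2DKO. The ranges overlapped through β-Mfn1/2DKO replicate 5, the library of highest acinar score. The other 4 β-Mfn1/2DKO libraries lay above the highest Ctrl library, and the group means were 0.0321 and 0.0290%. The share of the regulators was not tested.

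For each count of a regulator, a Ctrl library held 57.7 to 70.5 counts of mtDNA-encoded mRNA (mean 64.5 ± 5.83, SD, n = 6). This ratio lies within a library and does not depend on how libraries are scaled. It was 60.5 ± 6.50 in β-Mfn1KO (SD, n = 4), 38.3 ± 2.75 in β-Mfn2KO (SD, n = 5). In β-Mfn1/2DKO it came to 19.9 ± 3.22 (SD, n = 5). The lowest Ctrl library lay above the highest β-Mfn2KO library (43.0), and the lowest β-Mfn2KO library (36.3) lay above the highest β-Mfn1/2DKO library (24.9). Against *Lrpprc* alone, the ratio went from 204 ± 22.4 in Ctrl to 111 ± 9.50 in β-Mfn2KO and 60.3 ± 10.9 in β-Mfn1/2DKO.

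**Figure D1:**
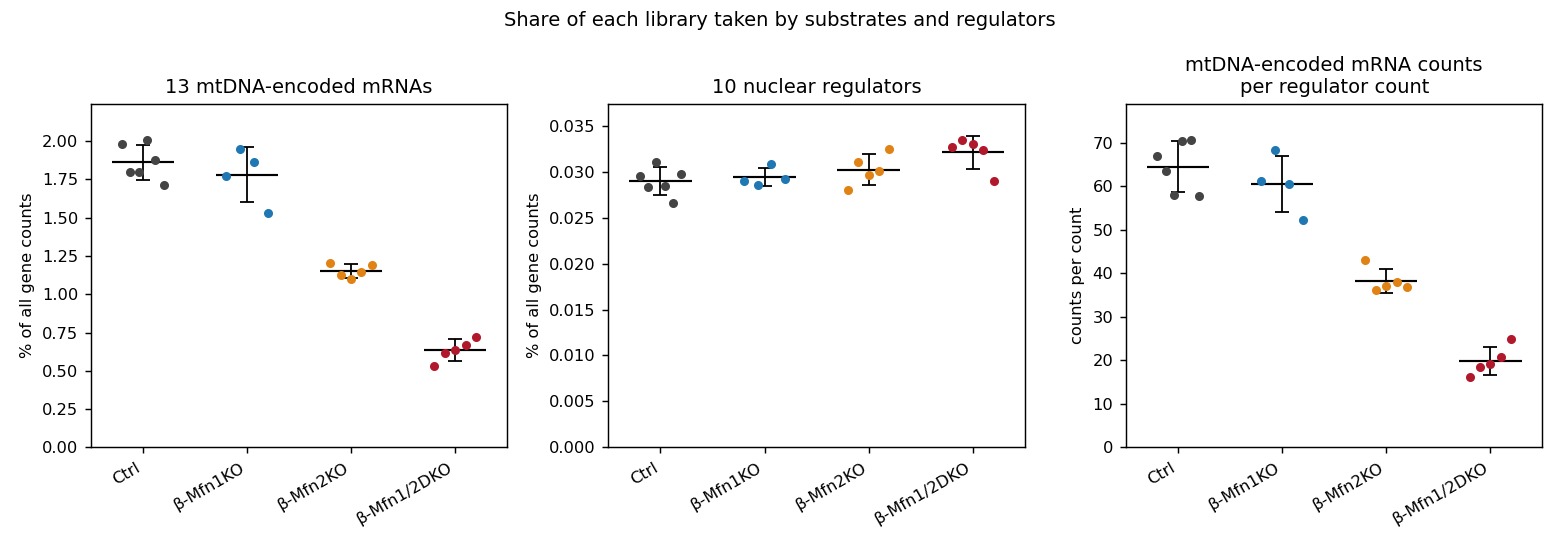
Percent of all gene counts from the 13 mtDNA-encoded mRNAs (left), percent from the 10 nuclear regulators (middle) and mtDNA-encoded mRNA counts per regulator count (right); each point is 1 library, with group mean and SD. The left and right panels step down from Ctrl through β-Mfn2KO to β-Mfn1/2DKO (64.5, 38.3 and 19.9 on the right), while the middle panel stays between 0.0266 and 0.0334%.

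For single genes, the quasi-likelihood test of edgeR was run and its p-values adjusted by Benjamini-Hochberg over all 28632 genes of a comparison. A gene passed at an adjusted p under 0.05. Levels are normalised counts, which are counts scaled by edgeR's TMM method to a common library size. In β-Mfn1/2DKO against Ctrl, 0 of 10 regulators passed, where 16.5% of all genes did and 33.6% of the 12356 genes with a mean of at least 100 counts. At an unadjusted p under 0.05 there were 2 (*Fastk* and *Slirp*), DESeq2 passed 1 (*Fastk*) and limma on the authors' normalized values passed 0. The log2 fold changes ran from −0.28 to 0.13 with a median of 0.04 (7 above 0 and 3 below), and their median size was 0.10. Over all genes with a mean of at least 100 counts, the median was 0.04 and the median size 0.16. All 13 mtDNA-encoded mRNAs passed in the same comparison, with log2 fold changes from −2.48 to −1.60. The lowest, *mt-Nd4l*, had as few as 74 counts in a Ctrl library, and its ranges overlapped. Of their 75-base stretches, 97.8 to 99.9% in *mt-Co2*, *mt-Atp6*, *mt-Co3*, *mt-Nd3* and *mt-Nd4l* also occur in other genes, so these counts are uncertain. The share was 61.5% in *mt-Nd4* and 39.8% in *mt-Co1*. *mt-Nd1* and *mt-Cytb*, with 0% shared, were at −1.60 and −1.73. For 10 of 10 regulators the 95% interval of the log2 fold change lay within a 1.5-fold change either way, its extremes being −0.54 and 0.27.

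In β-Mfn2KO against Ctrl, 0 of 10 passed with edgeR, DESeq2 and limma (0.0559% of all genes passed with edgeR), and 1 had an unadjusted p under 0.05 (*Lrpprc*). The regulators' log2 fold changes lay between −0.08 and 0.15, whereas 10 of 13 mtDNA-encoded mRNAs fell, with a median of −0.68 over the 13. In β-Mfn1KO against Ctrl, 0 of 10 passed with the same tools (0.0279% of all genes with edgeR) and 0 had an unadjusted p under 0.05. There the regulators' values were −0.04 to 0.19, and 0 of 13 mtDNA-encoded mRNAs passed. Against β-Mfn2KO, β-Mfn1/2DKO had 0 of 10 regulators past the test with any of these tools (13% of all genes with edgeR; 2 at an unadjusted p under 0.05), and 13 of 13 mtDNA-encoded mRNAs lower, with a median of −1.01. The interaction, which asks whether losing *Mfn1* had another effect without *Mfn2* than with it, passed for 0 of 10 regulators with any of them (5.92% of all genes; 1 at an unadjusted p under 0.05) and for 11 of 13 mtDNA-encoded mRNAs. Against β-Mfn1KO, 1 of 10 regulators was lower in β-Mfn1/2DKO (*Fastk*; 17.4% of all genes passed). The comparisons share libraries and are not independent of each other.

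**Figure D2:**
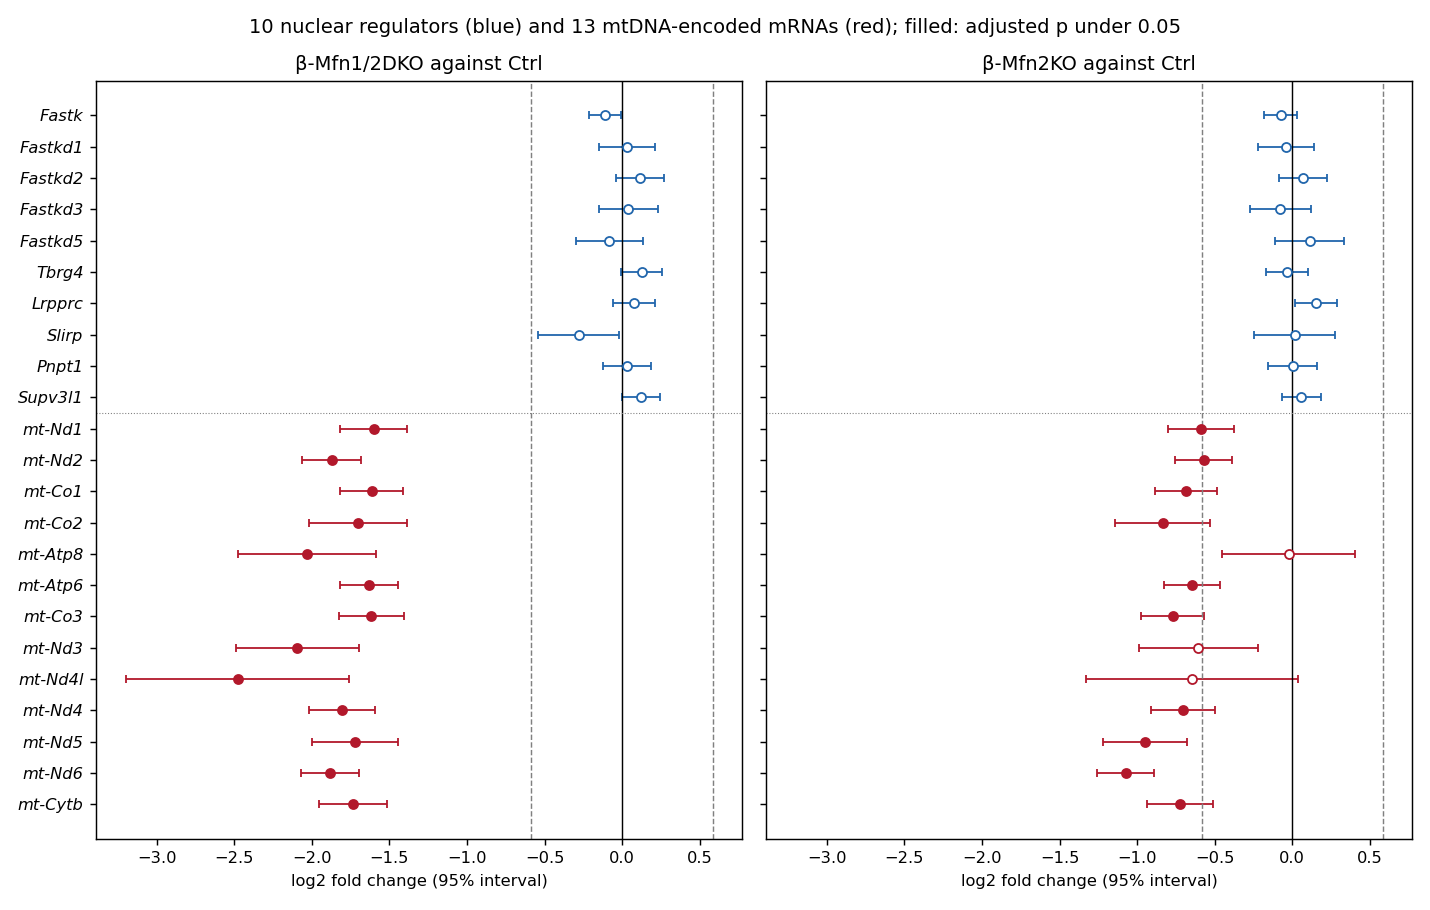
Log2 fold changes (points) with 95% intervals (bars) of the 10 regulators (blue, above the dotted line) and the 13 mtDNA-encoded mRNAs (red, below it) in β-Mfn1/2DKO and β-Mfn2KO against Ctrl; filled points have an adjusted p under 0.05 and dashed lines mark a 1.5-fold change. The 10 regulator intervals lie inside the dashed lines in both panels, and the 13 mtDNA-encoded mRNAs lie at −2.48 to −1.60 in β-Mfn1/2DKO.

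*Fastk* (chr5:24438440-24445287, minus strand) is the founding FASTK gene, and a mitochondrial form of its protein is needed to keep the *mt-Nd6* mRNA. Its normalised counts in Ctrl ran from 3032 to 3716 with a median of 3386. They were 3729, 3684, 3350 and 3581 in β-Mfn1KO, and 3162, 3368, 2967, 3407 and 3159 in β-Mfn2KO. In β-Mfn1/2DKO they were 3184, 3272, 3083, 3080 and 3063, all below each β-Mfn1KO library and all within the Ctrl range. Against Ctrl *Fastk* was at −0.11 on the log2 scale (SE 0.05, 95% interval −0.22 to −0.01, adjusted p = 0.15). *Fastk* fell by 0.19 on that scale against β-Mfn1KO (SE 0.06, adjusted p = 0.017), which was the only pass among the members in the 6 comparisons. That pass was lost without β-Mfn1/2DKO replicate 3 (adjusted p = 0.068) or 4 (0.071), and without β-Mfn1KO replicate 1 (0.062) or 2 (0.053). It was also lost with total-count scaling (−0.03, adjusted p = 0.75), and it held in 26 of 33 other settings. Against Ctrl, *Fastk* passed with DESeq2 (−0.14, adjusted p = 0.015), after a filter on low counts (−0.13, adjusted p = 0.036), with the replicate number as a block (−0.14, adjusted p = 0.044) and without Ctrl replicate 6 (−0.14, adjusted p = 0.048). *Fastk* shares 1141 exon bases with *Slc4a2* on the opposite strand, and whether counting used strand is not given in the sources used here. *Slc4a2* had −0.03 against both Ctrl and β-Mfn1KO (adjusted p = 0.70 and 0.74).

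The *mt-Nd6* mRNA, the 1 mRNA read from the other strand of mtDNA, had the lowest log2 fold change of the 13 in β-Mfn2KO. It ran from 12487 to 19066 in Ctrl and was 7329, 7528, 6787, 8930 and 8113 in β-Mfn2KO. In β-Mfn1/2DKO it was 4062, 4983, 4375, 4340 and 4342, below each β-Mfn2KO library. In β-Mfn2KO *mt-Nd6* fell by 1.07 on the log2 scale (SE 0.09, adjusted p = 3.8e-07). *mt-Nd5* came next there at −0.95 (SE 0.13), and this order was not tested. With both genes deleted *mt-Nd6* was at −1.88 (SE 0.09, adjusted p = 1.0e-11). *Fastk* over the same comparisons was at −0.08 and −0.11, with neither past the test. *mt-Nd6* shares 14 exon bases with *mt-Nd5* on the opposite strand, and *mt-Nd5* had 560% as many counts. Because the strand setting is not known, whether *mt-Nd5* RNA entered the *mt-Nd6* counts was not tested.

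*Fastkd1* (chr2:69686815-69713516, minus strand) and *Fastkd3* (chr13:68582234-68592338, plus strand) were the FASTK genes with the fewest counts per kilobase of merged exon. Per kilobase of the principal transcript *Fastkd5* was lowest in Ctrl (99.7, against 120.6 for *Fastkd3* and 154.7 for *Fastkd1*). Fastkd1 is linked to the level of the *mt-Nd3* mRNA and Fastkd3 to several mRNAs and to translation of *mt-Co1*. *Fastkd1* ran from 384.7 to 510.6 in Ctrl (median 452.4) and was 425.2, 412.6, 448.0, 486.4 and 495.3 in β-Mfn1/2DKO. Its log2 fold change was 0.03 (SE 0.09, 95% interval −0.15 to 0.21, adjusted p = 0.85), and the 4 group means spanned 1.06-fold. *mt-Nd3* fell by 2.10 on the log2 scale in β-Mfn1/2DKO (SE 0.19, adjusted p = 1.0e-07), from a range of 1204 to 2481 in Ctrl to 360.4 to 618.7. As 97.8% of the 75-base stretches of *mt-Nd3* also occur in other genes, its counts are uncertain. *Fastkd3* ran from 240.1 to 348.7 in Ctrl and from 266.3 to 335.8 in β-Mfn1/2DKO (log2 fold change 0.04, SE 0.09, adjusted p = 0.82). The 4 β-Mfn1KO libraries of *Fastkd3*, at 307.1, 340.9, 335.3 and 346.5, lay above the 5 β-Mfn2KO libraries (268.0 to 297.2) and overlapped with Ctrl (0.19, SE 0.10, adjusted p = 0.70).

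*Fastkd2* (chr1:63730614-63754655, plus strand) binds the large mitochondrial rRNA and takes part in assembly of the mitochondrial ribosome. Ctrl libraries ran from 668.4 to 826.6. The β-Mfn1/2DKO libraries were at 772.4, 793.8, 821.7, 842.6 and 717.7 and overlapped with them. *Fastkd2* had a log2 fold change of 0.11 (SE 0.07, 95% interval −0.04 to 0.27, adjusted p = 0.36). The large rRNA itself, *mt-Rnr2*, fell from 16762 to 26994 in Ctrl to 6196, 6396, 6653, 10698 and 13844 in β-Mfn1/2DKO (log2 fold change −1.26, SE 0.19, adjusted p = 4.4e-05). In β-Mfn2KO *mt-Rnr2* was at −0.24 (adjusted p = 0.93) and *Fastkd2* at 0.07 (adjusted p = 0.93). How rRNA was treated in the library preparation is not given in the sources used here.

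*Fastkd5* (chr2:130613840-130630027, minus strand) acts on precursors whose ends are not set by a tRNA, that of *mt-Co1* among them. Ctrl libraries ran from 256.1 to 348.9 (median 295.4). Those of β-Mfn1/2DKO lay within that range, at 256.7, 297.3, 289.3, 271.6 and 307.2. *Fastkd5* had a log2 fold change of −0.08 (SE 0.10, 95% interval −0.30 to 0.13, adjusted p = 0.66). *mt-Co1* fell from 187944 to 238975 in Ctrl to 55051 to 84487 in β-Mfn1/2DKO (log2 fold change −1.61, SE 0.10, adjusted p = 2.1e-10). *Fastkd5* lies within the same-strand gene *Ubox5* over 1966 exon bases, and 64.4% of its stretches of 75 bases also occur in other genes, so that its counts are uncertain.

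*Tbrg4* (chr11:6615598-6626067, minus strand), also called Fastkd4, stabilises several mitochondrial mRNAs. In Ctrl it ran from 982.2 to 1151 with a median of 1082. It was 1021, 1088, 990.7, 1087 and 1073 in β-Mfn2KO and 1148, 1178, 1107, 1239 and 1207 in β-Mfn1/2DKO, so that each β-Mfn1/2DKO library lay above each β-Mfn2KO library. Against β-Mfn2KO *Tbrg4* was at 0.16 on the log2 scale (SE 0.07, 95% interval 0.02 to 0.29, adjusted p = 0.12). It passed when only these 2 groups were fitted (adjusted p = 0.036), and was 0.17 (adjusted p = 0.14) when only the 2 deeper β-Mfn2KO libraries were compared. Against Ctrl it was 0.13 (SE 0.06, adjusted p = 0.20).

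*Lrpprc* (chr17:84705247-84790789, minus strand), the larger subunit of the mRNA-binding complex, was the regulator with the second highest level per kilobase. In Ctrl it ran from 3684 to 4273 (median 3793). It was 3523, 3258, 4408 and 4233 in β-Mfn1KO, 4181, 4617, 4377, 4295 and 4167 in β-Mfn2KO, and 4216, 4252, 4186, 4032 and 3822 in β-Mfn1/2DKO. β-Mfn2KO lay in the upper part of the Ctrl range or above it, and β-Mfn1/2DKO lay within that range. *Lrpprc* in β-Mfn2KO had a log2 fold change of 0.15 (SE 0.07, 95% interval 0.02 to 0.29, adjusted p = 0.93). In β-Mfn1/2DKO it was 0.07 (SE 0.06, 95% interval −0.06 to 0.21, adjusted p = 0.52).

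*Slirp* (chr12:87443896-87452206, plus strand) encodes the small RNA-binding partner of Lrpprc, and each protein is known to need the other for its stability. It had the lowest log2 fold change of the 10 in β-Mfn1/2DKO. In Ctrl it ran from 429.4 to 681.8 with a median of 596.6, and in β-Mfn1KO it was 658.8, 602.2, 601.0 and 668.1. It was 552.9, 531.6, 444.2, 622.5 and 780.6 in β-Mfn2KO and 450.5, 581.7, 490.7, 494.6 and 395.0 in β-Mfn1/2DKO. Each β-Mfn1/2DKO library lay below each β-Mfn1KO library, and those of Ctrl and β-Mfn2KO overlapped with it. The log2 fold change was −0.28 against Ctrl (SE 0.13, 95% interval −0.54 to −0.02, adjusted p = 0.15), −0.29 against β-Mfn2KO (SE 0.13, adjusted p = 0.15) and −0.39 against β-Mfn1KO (SE 0.14, adjusted p = 0.055, under 0.05 in 11 of 33 other settings).

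In β-Mfn1/2DKO against Ctrl, *Slirp* had the widest range over the settings among the 10 regulators (−0.74 to −0.14). It passed there without Ctrl replicate 2 (−0.36, adjusted p = 0.045), which held the lowest Ctrl value. With a covariate for deep libraries it was −0.74 (adjusted p = 0.043). The β-Mfn2KO replicates 4 and 5, the only deep libraries outside β-Mfn1/2DKO, held the highest values of their group (622.5 and 780.6). Without replicate 5 of β-Mfn2KO, the value against that genotype was −0.14 in place of −0.29. Against these libraries alone β-Mfn1/2DKO had −0.49 (SE 0.15, adjusted p = 0.095). Without β-Mfn1/2DKO replicates 4 and 5, which had the highest acinar marker scores of all 20 libraries, the value against Ctrl was −0.19 (adjusted p = 0.50). The part of depth and of acinar RNA in the *Slirp* values was not tested further. *Slirp* overlaps with *Snw1* on the opposite strand over 2914 exon bases, 88.9% of its 75-base stretches occur in other genes, and *Snw1* had 640% as many counts. *Snw1* was at 0.04 against Ctrl (SE 0.05, adjusted p = 0.65) and at −0.02 against β-Mfn1KO (adjusted p = 0.87). *Slirp* also shares 122 exon bases with *Alkbh1* on the opposite strand. *Alkbh1* was at −0.14 against Ctrl (SE 0.09, adjusted p = 0.30) and at −0.26 against β-Mfn1KO (SE 0.09, adjusted p = 0.062).

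*Pnpt1* (chr11:29130744-29161828, plus strand) and *Supv3l1* (chr10:62429209-62449738, minus strand) encode the exoribonuclease and the helicase of the mitochondrial degradosome. *Pnpt1* ran from 818.7 to 1012 in Ctrl (median 885.4) and was 926.1, 1026, 963.1, 942.6 and 805.0 in β-Mfn1/2DKO. Its group means spanned 1.05-fold, the narrowest span of the 10, and the log2 fold change was 0.03 (SE 0.07, 95% interval −0.12 to 0.19, adjusted p = 0.81). *Supv3l1* ran from 617.9 to 731.6 in Ctrl (median 661.0) and was 701.7, 811.3, 728.9, 704.3 and 678.5 in β-Mfn1/2DKO, where 1 of 5 libraries exceeded the Ctrl range. Its log2 fold change was 0.12 (SE 0.06, 95% interval −0.003 to 0.24, adjusted p = 0.19). In β-Mfn2KO *Pnpt1* was at 0.001 (SE 0.08) and *Supv3l1* at 0.06 (SE 0.06), with neither past the test.

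**Figure D3:**
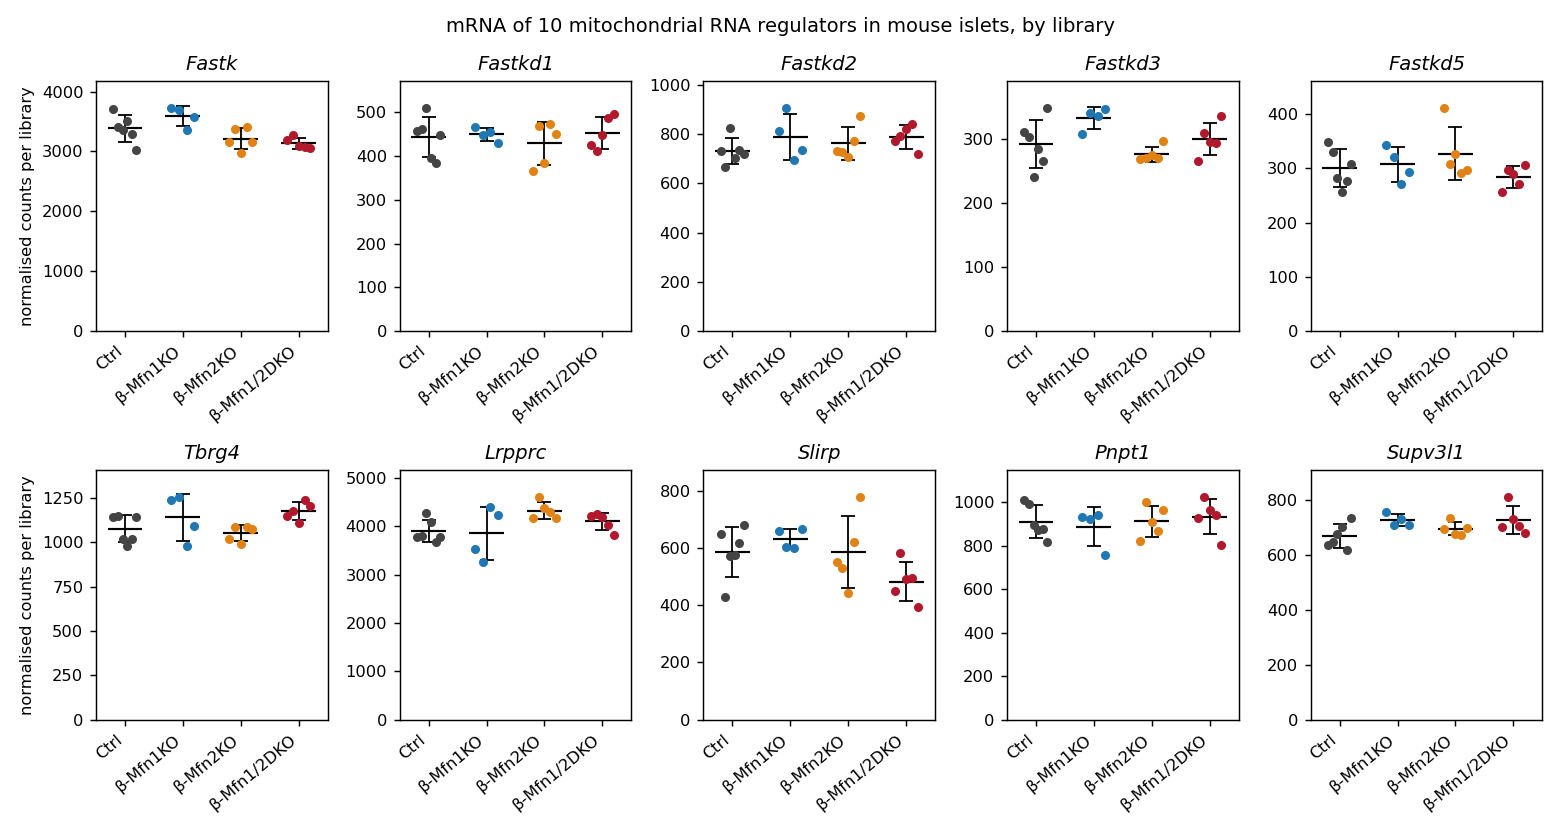
Normalised counts (vertical axes from 0) of the 10 regulators in each library by genotype, with group means (lines) and SD (bars). The 5 β-Mfn1/2DKO points overlap with the 6 Ctrl points for each gene, and the largest span of group means is that of *Slirp* (1.31-fold).

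Among themselves, the 10 regulators differed far more in level than any differed between genotypes. Per kilobase of annotated exon, Ctrl means ran from 56.0 normalised counts for *Fastkd3* to 775 for *Fastk*. The Ctrl order was *Fastk*, *Lrpprc*, *Tbrg4*, *Pnpt1*, *Supv3l1*, *Slirp*, *Fastkd2*, *Fastkd5*, *Fastkd1* and *Fastkd3*, and the same order of means held in the other 3 genotypes. By principal transcript length *Fastkd5* moved to the end of the order in all 4 genotypes. In Ctrl, *Fastk* stood apart from *Lrpprc* and *Lrpprc* from *Tbrg4*, while every other pair of neighbours overlapped between libraries. In β-Mfn1/2DKO the overlapping neighbours were *Pnpt1* with *Supv3l1* and *Slirp* with *Fastkd2*. The highest of the 4 group means exceeded the lowest by 1.05-fold to 1.31-fold. The coefficient of variation within Ctrl ran from 5.83% (*Lrpprc*) to 15.0% (*Slirp*). For 6 of 10 regulators a common range of values was shared by all 4 genotypes; the exceptions were *Fastk*, *Fastkd3*, *Tbrg4* and *Slirp*.

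**Figure D4:**
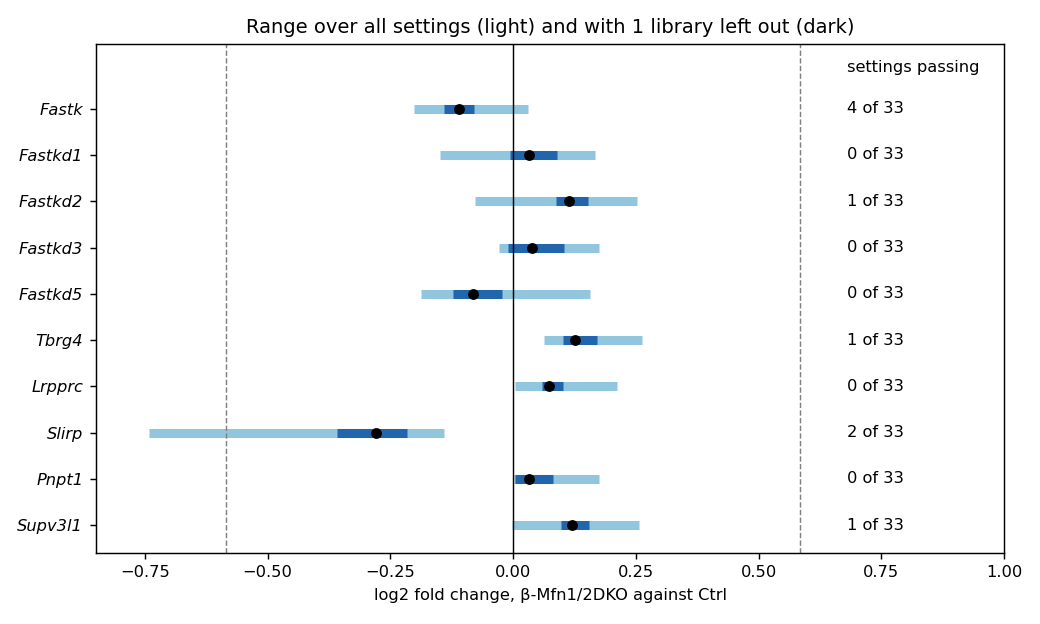
Log2 fold change of each regulator in β-Mfn1/2DKO against Ctrl (black point), with its range over 33 other settings (light bar) and its range with 1 library left out (dark bar); the text at the right counts the settings with an adjusted p under 0.05. Only the light bar of *Slirp*, which reaches −0.74, crosses a dashed 1.5-fold line, and *Fastk* passes in 4 of 33 settings.

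The rest of the pathway was read from 54 other genes in 5 lists by step. In β-Mfn1/2DKO against Ctrl, 9 of 54 passed (16.7%, beside 16.5% of all genes and 33.6% of those with a mean of at least 100 counts), 7 higher (9.59% of all genes) and 2 lower (6.86%), and 0 of 54 exceeded 1.5-fold as well (5.21% of all genes). The median log2 fold change of the 54 was 0.06. In β-Mfn2KO and β-Mfn1KO against Ctrl, 0 of 54 passed with edgeR, with 1 and 7 at an unadjusted p under 0.05 (1208 and 2130 of all 28632 genes), and DESeq2 and limma also passed 0 in each. Transcription of mtDNA (0 of 5, *Tfam* and *Polrmt* among them) and cleavage of the precursor (0 of 6) had no gene past the test in β-Mfn1/2DKO. The study reports less Tfam protein, with unchanged *Tfam* mRNA, in islets lacking both genes. Only RNA was read here, so an unchanged mRNA does not show an unchanged protein, for these genes or for the regulators.

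Of 25 genes that modify mitochondrial RNA, 5 rose and 1 fell in β-Mfn1/2DKO, where 9.59% of all genes rose and 6.86% fell. Of all genes with a mean of at least 100 counts, 33.6% passed in either direction. *Pus1*, a pseudouridine synthase, ran from 990.0 to 1125 in Ctrl and from 1259 to 1460 in β-Mfn1/2DKO, without overlap (log2 fold change 0.34, SE 0.05, adjusted p = 0.00013). *Mettl8*, a tRNA methyltransferase, ran from 343.8 to 448.8 and from 500.1 to 515.4 (0.38, adjusted p = 0.0010). *Rpusd3* (0.47, adjusted p = 0.010) and *Rpusd4* (0.22, adjusted p = 0.041), also pseudouridine synthases, and *Gtpbp3*, which modifies tRNA wobble bases (0.16, adjusted p = 0.046), also passed. The calls of *Rpusd4* and *Gtpbp3* held in 18 and 16 of 33 other settings, and were lost with DESeq2, limma, acinar score and the covariate for deep libraries. That of *Trmt61b* held in 24 of 33. *Trmt61b*, which methylates rRNA and tRNA, fell, from 392.3 to 753.0 in Ctrl to 310.3 to 454.5, with overlap (log2 fold change −0.48, adjusted p = 0.028). *Rpusd3* shares 41.1% of its 75-base stretches with another gene and is uncertain.

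Beside the same shares of all genes, of 12 genes of polyadenylation, decay and storage, 1 rose and 1 fell. *Mtres1*, a factor of mitochondrial transcription and ribosome rescue, rose (0.31, SE 0.09, adjusted p = 0.016, held in 28 of 33 other settings). Its call was lost with acinar score, limma and the covariate for deep libraries. It was also lost without β-Mfn1/2DKO replicate 5, and without replicates 4 and 5, which held its highest values of that group (555.7 and 574.4). *Lactb2*, a mitochondrial endoribonuclease, fell (−0.18, SE 0.06, adjusted p = 0.037, held in 19 of 33 other settings). Of 6 genes of translation and rRNA handling, *Noa1*, a GTPase of mitochondrial ribosome assembly, rose, from 728.6 to 915.9 in Ctrl to 1014 to 1133 in β-Mfn1/2DKO (log2 fold change 0.33, SE 0.06, adjusted p = 0.00048). With a covariate for deep libraries 0 of 54 passed, and passes over all genes went from 4710 to 728. The log2 fold changes there were 0.27 for *Pus1*, 0.34 for *Noa1*, 0.39 for *Mettl8* and 0.64 for *Rpusd3*. *Rpusd4* was at 0.09 there, its lowest value over the settings, so the covariate moved fold changes as well as adjusted p-values. The values of *Gtpbp3*, *Trmt61b*, *Mtres1* and *Lactb2* with this covariate are not given here. Without β-Mfn1/2DKO replicate 5, 5 of 54 and 4079 of all genes passed. With total-count scaling, which moved the median of all genes to 0.17, 23 of 54 and 6342 of all genes passed.

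**Figure D5:**
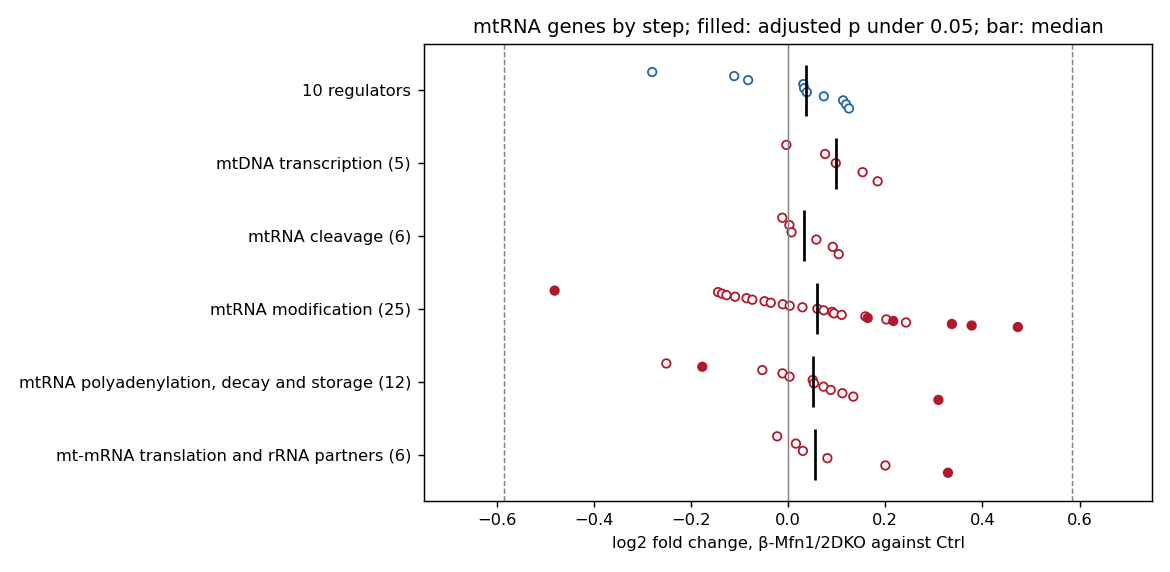
Log2 fold changes in β-Mfn1/2DKO against Ctrl of the 10 regulators (blue) and of 54 other genes in 5 lists by step (red); filled points have an adjusted p under 0.05, bars are medians and dashed lines mark a 1.5-fold change. The points lie inside the dashed lines, and filled points are in the lists of modification (6), polyadenylation, decay and storage (2) and translation (1).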

How the data were processed

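The authors sequenced paired-end reads, aligned them to GRCm38 with STAR 2.6.1b and estimated gene counts with RSEM 1.3.1, and deposited whole-number counts from which genes with no count anywhere had been removed. The depth-normalized signal that the authors also deposited entered 1 alternative. The number of sample columns left unused was 0. The strand setting and the meaning of the replicate numbers are not given in the sources used here.

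Differences over 28632 genes come from edgeR 4.0.16 (TMM, estimateDisp, glmQLFit, glmQLFTest, Benjamini-Hochberg adjustment) in R 4.3.3, in 1 fit over 20 libraries with 1 coefficient per group. The standard error (SE) is the log2 fold change over the root of F, and 95% intervals use the t distribution of the fit. Shares were compared by exact permutation in SciPy 1.17.1. Genes were matched to GENCODE M21 on GRCm38 (28579 with a symbol), and levels per kilobase use merged exon length. Depth ran from 12400687 to 122947313 counts, and the fewest counts of a regulator in a library were 73. The study gives its sample numbers as mice, and they match the libraries per group, so replicates were taken as mice. The test was tested on simulated data.

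The members and lists were chosen with earlier results of these data known. Named are the 10 members, the 13 mtDNA-encoded mRNAs, other list genes past the test (up to 12), *Mfn1* and *Mfn2*. *Nrf1*, *Gabpa*, *Yy1*, *mt-Rnr2* and overlapping genes were added after values were seen. Alternatives were DESeq2 1.42.0, other scalings, filterByExpr, a 1.5-fold rule, covariates (sex, replicate number, acinar score), thinning (seed 20), subsets of libraries and, chosen after seeing the data, depth class (the 5 β-Mfn1/2DKO libraries and β-Mfn2KO replicates 4 and 5 against the rest) and limma on log2(signal + 1).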

Additional observations from a re-analysis of the deposited data

Results flagged for a closer look

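A library lay apart from the others of its group, by Dixon's 95% limit on the gap over the range, in 4 of 48 groups of values checked. Chance gives about 1 in 20 groups. *Pnpt1* in β-Mfn1KO had its lowest value of 756.8 normalised counts in replicate 4, with the other libraries at 923.9 to 941.2. *Fastkd3* in β-Mfn2KO had its highest value of 297.2 in replicate 5, 1 of the 2 deep libraries of that group. *Fastkd5* in β-Mfn2KO had its highest value of 411.9 in replicate 1, a gene whose counts are shared with *Ubox5*. The ratio of mtDNA-encoded mRNA counts to regulator counts in β-Mfn2KO was highest at 43.0 in replicate 1.

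The effect of losing *Mfn1* differed with and without *Mfn2* for 11 of 13 mtDNA-encoded mRNAs, by the interaction term of edgeR's quasi-likelihood fit. The differences of log2 fold changes were −1.09 for *mt-Nd1*, −1.28 for *mt-Nd2*, −0.86 for *mt-Co1*, −0.88 for *mt-Co2*, −1.89 for *mt-Atp8*, −0.94 for *mt-Atp6*, −0.87 for *mt-Co3*, −1.50 for *mt-Nd3*, −1.03 for *mt-Nd4*, −0.72 for *mt-Nd6* and −0.95 for *mt-Cytb*. The values of *mt-Atp8* and *mt-Nd3*, the lowest of these, go with a split by depth within β-Mfn2KO. *mt-Atp8* was at 697.6 and 800.4 normalised counts in its deep replicates 4 and 5 and at 307.5 to 377.5 in the others, and *mt-Nd3* at 1930 and 1639 against 846.6 to 1109. The same term passed for 0 of 10 regulators with edgeR and DESeq2, with the lowest value for *Slirp* (−0.40, adjusted p = 0.25), which was −0.25 without β-Mfn2KO replicate 5.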

How the results depend on the processing

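In β-Mfn2KO against Ctrl, β-Mfn1KO against Ctrl and the interaction, 0 of 10 regulators passed under each alternative run. In β-Mfn1/2DKO against Ctrl the count of 0 became 1 with DESeq2, with filterByExpr, with the replicate block and with depth class as a covariate, and 3 with total-count scaling (*Fastkd2*, *Supv3l1* and *Tbrg4*). Leaving out 1 library gave 0 to 1. Total-count scaling moved the median of all genes to 0.17, and relative to that median these 3 genes were at 0.08, 0.08 and 0.09. Against β-Mfn2KO the count became 1 with depth class, with the 2 groups alone and with total-count scaling. Against β-Mfn1KO the count of 1 became 2 with DESeq2, DESeq2 size factors, thinned counts, filterByExpr, the 2 groups alone, the replicate block and sex (*Fastk* and *Slirp*, both lower), and 2 other genes with total-count scaling (*Lrpprc* at 0.25 and *Tbrg4* at 0.21, both higher). It was 1 with depth class, there *Slirp* and not *Fastk*, and 0 without β-Mfn1/2DKO replicates 4 and 5 and with the 1.5-fold rule; leaving out 1 library gave 0 to 2. The count of other pathway genes in β-Mfn1/2DKO against Ctrl went from 9 to 4 with acinar score, 0 with depth class, 5 with limma, 23 with total-count scaling (4044, 728, 3825 and 6342 of all genes, against 4710) and 0 with the 1.5-fold rule, and to 5 to 10 when 1 library was left out. The causes were not tested.

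The replicate numbers were not taken as pairs, because what they stand for is not given in the sources used here. Same-numbered libraries of unlike groups did deviate together, with a mean r of 0.232 against −0.051 for other numbers. Of 27 same-numbered pairs, 21 had r above 0.1 (lowest −0.11), and 9 of 20 libraries correlated best with 1 of their own number. The main fit and the permutation tests did not take this into account. With the block 1 regulator passed in β-Mfn1/2DKO against Ctrl (*Fastk*).

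Of 2257 single-gene values under an alternative, 0 reversed a call, 73 lost it, 25 gained it and 79 moved by more than 1 SE without a call. The least counted regulator had 73 counts in 1 library, which limits the precision, and β-Mfn1/2DKO intervals against Ctrl were up to 0.54 from 0 on the log2 scale.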
